A study of Ananas comosus with 8 samples.

Results

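The genes described here encode subunits of the plant RNA polymerases Pol IV and Pol V and the factors that bring Pol IV to chromatin. They are 8 of the 27024 genes in the expression matrix, picked by gene identifier and not by a cut on expression. Earlier results of these data were known when the genes were chosen. Their names rest on homology to *Arabidopsis thaliana* genes, as given by the study. The matrix came from RNA-seq of field-grown pineapple (*Ananas comosus*, cultivar MD-2), with 2 libraries of the photosynthetic green tip of the D leaf and 2 of its non-photosynthetic white base. Bisulfite sequencing libraries of the same tissues were not used here. The study sampled the leaf over a day and night, but the labels give no time of day for these libraries, and no treatment or plant age. The matrix lists 1 FPKM value (fragments per kilobase of transcript, normalized to library size) for each gene in each tissue, so each number given for a tissue is the single value that the authors deposited, with no replicate error and no test.

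RNA-directed DNA methylation (RdDM) is the route by which plants place new DNA methylation, above all in the CHH context (H is any base but G), mostly at transposons. In *Arabidopsis*, Pol IV transcribes its target loci, RDR2 makes the transcripts double-stranded, DCL3 cuts them into small RNAs, and AGO4 carries these to transcripts made by Pol V, where DRM2 methylates the DNA. Pol IV and Pol V are multi-subunit relatives of Pol II. Each has a largest subunit of its own, both share the second-largest subunit, and some smaller subunits are shared and others not. All roles named below are those known from *Arabidopsis*.

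With FPKM as deposited, the 8 genes did not share a direction. NRPD2/NRPE2, the shared second-largest subunit, and CLSY, a recruiter of Pol IV, had 2.06 and 2.38 times as much FPKM in the white base as in the green tip. The largest subunits NRPD1 and NRPE1 were closer, at 1.26 and 1.06 times. NRPD4/NRPE4 and SHH had more FPKM in the green tip, by 1.43 and 1.34 times, but less once each tissue was rescaled to the same sum. NRPE9B had a listed value of 0 in each tissue. In bulk tissue, fewer cells of a type and less RNA per cell cannot be told apart. In the plot of levels by gene, NRPD2/NRPE2 and CLSY have the steepest lines.

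**Figure D1:**
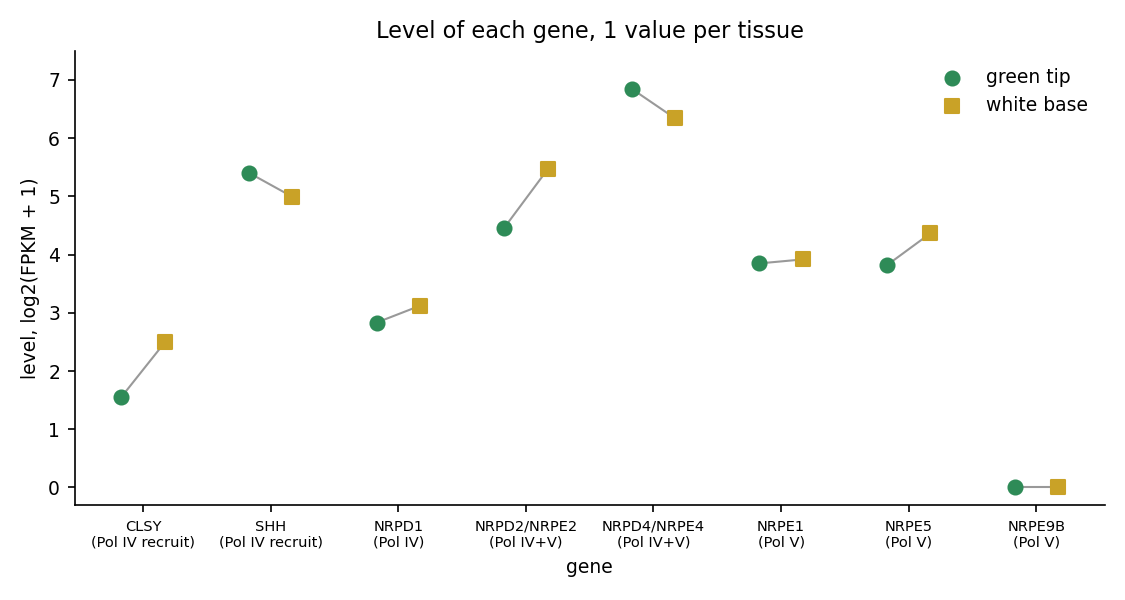
Level of each of the 8 genes as log2(FPKM + 1), with the green tip as a circle on the left and the white base as a square on the right of each pair; each point is the single deposited value of a tissue, so there are no error bars. NRPD4/NRPE4 is the highest gene in both tissues (114 FPKM in the green tip, 79.9 FPKM in the white base) and NRPE9B lies at 0 in both.

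The recruiters of Pol IV come first along the pathway. CLSY (Aco011099), a member of the CLASSY family of SNF2-type chromatin remodelers that act with Pol IV, had 1.94 FPKM in the green tip, against 4.63 FPKM in the white base. Its level stood at the 14.3th percentile of the genes over 0.5 FPKM in the green tip, and at the 26.0th percentile in the white base. It was the lowest of the genes above 0 in both tissues. SHH (Aco017233), a homologue of the SAWADEE homeodomain proteins that read histone marks and guide Pol IV to part of its loci, had 41.3 FPKM in the green tip, against 30.8 FPKM in the white base. These levels stood at the 80.2th percentile in the green tip and the 75.8th in the white base. The recruiters therefore lay far apart within each tissue: SHH had 21.2 times the FPKM of CLSY in the green tip, against 6.65 times in the white base. With 1 added to each FPKM the ratio was 14.4 in the green tip, against 5.64 in the white base. It was chosen after the values had been seen. FPKM is a level per length of transcript, so genes of different length can be set side by side, but only roughly. The annotation version is not given, and shared reads between gene copies could not be checked.

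Pol IV itself is represented by NRPD1 and the shared subunits. NRPD1 (Aco015559), its largest subunit, which holds the catalytic centre, had 6.12 FPKM in the green tip, against 7.70 FPKM in the white base. It was the lowest of the polymerase subunits above 0 in both tissues, at the 32.6th percentile in the green tip and the 36.0th in the white base. NRPD2/NRPE2 (Aco009438), the second-largest subunit, had 21.0 FPKM in the green tip, against 43.1 FPKM in the white base. The difference of -22.2 FPKM was the largest of the 8 genes in favour of the white base. The percentile of its level was 63.5 in the green tip, against 83.2 in the white base. NRPD4/NRPE4 (Aco018391), a small subunit of both polymerases, had 114 FPKM in the green tip, against 79.9 FPKM in the white base, at the 93.7th percentile in the green tip and the 92.4th in the white base.

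Pol V has its own largest subunit. NRPE1 (Aco023234), which in *Arabidopsis* carries a long C-terminal extension that binds AGO4, had 13.4 FPKM in the green tip, against 14.1 FPKM in the white base. With FPKM as deposited this was the smallest relative difference among the 7 genes above 0. NRPE5 (Aco000628), a subunit that in *Arabidopsis* distinguishes Pol V from the other polymerases, had 13.1 FPKM in the green tip, against 19.6 FPKM in the white base. NRPE9B (Aco027798), a form of the ninth subunit, was listed at 0 in each of them. A value of 0 FPKM gives no detection limit, since FPKM carries no depth. The matrix lists 7361 genes at 0 in the green tip, against 6426 in the white base.

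The order of the levels was largely shared. NRPD4/NRPE4 was highest and NRPD1, CLSY and NRPE9B took the last 3 places in both tissues. SHH stood above NRPD2/NRPE2 in the green tip, whereas NRPD2/NRPE2 stood above SHH in the white base. NRPE1 and NRPE5 were neighbours in the green tip, at 13.4 and 13.1 FPKM, and no spread between libraries exists by which to separate them. In the white base NRPE5 was above NRPE1. As a share of the summed FPKM of the 8 genes, NRPD4/NRPE4 took 54.2% in the green tip, against 40.0% in the white base. NRPD2/NRPE2 took 9.93% in the green tip, against 21.6% in the white base. The sums themselves were close, at 211 FPKM in the green tip, against 200.0 FPKM in the white base. Without NRPD4/NRPE4 and SHH, the 2 genes with more FPKM in the green tip, the sums as deposited were 55.5 FPKM in the green tip, against 89.2 FPKM in the white base. Because these 2 genes were left out for their direction, the direction of that remaining difference was fixed by the choice.

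To compare the tissues, the log2 ratio of the green tip over the white base was taken on FPKM + 1 for genes with a mean over 0.5 FPKM across the tissues. This scale understates the difference of genes with low FPKM. Of the 8 genes, 7 passed that filter and NRPE9B did not. NRPD2/NRPE2 had a log2 ratio of -1.01 and was the only one of the 7 at 2-fold or more, just past that criterion. Thus 1 of 7 genes (14.3%) was higher in the white base by 2-fold or more, against 20.7% of the 18372 genes compared, and 0 of 7 were higher in the green tip by 2-fold or more, against 17.2%. In either direction 38.0% of all compared genes differed at least 2-fold. Among the 13382 genes with a mean between 3.29 and 97.1 FPKM, the range of these 7 genes, the shares were 19.4% higher in the white base and 16.3% higher in the green tip.

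The other log2 ratios lay within 2-fold. CLSY was at -0.94, NRPE5 at -0.54, NRPD1 at -0.29 and NRPE1 at -0.08, while SHH was at 0.41 and NRPD4/NRPE4 at 0.51. The median of the 7 genes was -0.29, beside -0.0095 for all compared genes. Of these 7 genes, 5 lay between the quartiles of all compared genes, -0.78 and 0.64, as the histogram of log2 ratios shows. Outside them were NRPD2/NRPE2, at the 20.6th percentile of all log2 ratios, and CLSY, at the 21.9th. NRPD4/NRPE4 was the highest, at the 71.5th percentile.

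**Figure D2:**
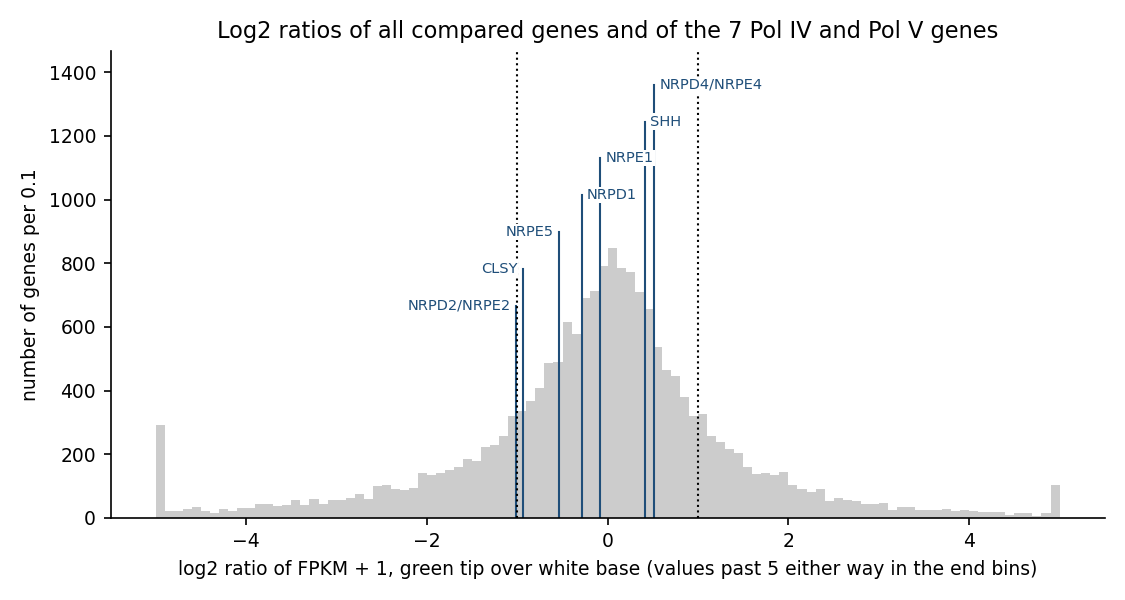
Number of compared genes (18372) by log2 ratio of FPKM + 1, green tip over white base, in bins of 0.1, with values past 5 in the end bins; blue lines mark the 7 Pol IV and Pol V genes with a ratio, at heights chosen for legibility, and dotted lines mark 2-fold. NRPD2/NRPE2 at -1.01 lies at the 2-fold line and the other 6 lie inside it.

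The directions of several genes depended on how the tissues were put on the same scale. The summed FPKM of all genes was 1136442 in the green tip, against 611241 in the white base, which is 1.86 times as much in the green tip, and the 100 highest genes held 50.0% of the sum in the green tip, against 18.7% in the white base. Without the 100 highest genes of each tissue the ratio of the sums was 1.14. After each column was rescaled to a sum of 1000000 (TPM), the median log2 ratio of all genes moved by -0.79, to -0.80. All 7 genes then had higher values in the white base. SHH had 36.3 TPM in the green tip, against 50.4 TPM in the white base, and its log2 ratio was -0.46. NRPD4/NRPE4 had 101 TPM in the green tip, against 131 TPM in the white base, and its log2 ratio was -0.37. NRPD2/NRPE2 was at -1.88, CLSY at -1.66, NRPE5 at -1.40 and NRPD1 at -1.09, so 4 of the 7 were higher in the white base by 2-fold or more, beside 42.0% of all compared genes under that scale. NRPE1 stayed within 2-fold, at -0.92. In the green tip direction 8.97% of all compared genes passed 2-fold after TPM rescaling. Of the genes called in all, 17.6% were higher in the green tip after TPM rescaling, against 45.4% with FPKM as deposited.

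Among all compared genes, NRPD2/NRPE2 stood at the 18.6th percentile of log2 ratios after TPM rescaling, CLSY at the 22.7th and NRPD4/NRPE4 at the 67.7th, near their places with FPKM as deposited. After quantile normalization NRPD2/NRPE2 was at -1.04 and the 17.5th percentile, NRPD4/NRPE4 was at 0.28 and the 56.9th percentile, CLSY was at -0.53, and NRPD1 and NRPE1 lay on the other side of 0, at 0.01 and 0.03. That scale placed 18.0% of all compared genes at 2-fold or more on the white base side. With a pseudocount of 0.1 in place of 1, CLSY passed 2-fold beside NRPD2/NRPE2, at -1.21, so 2 of the 7 genes did, against 23.9% of all compared genes. The same 2 genes passed a 1.5-fold criterion on the white base side, against 29.9% of all compared genes. NRPD2/NRPE2 was the 1 gene of the 8 that was higher in the white base by 2-fold or more under each of the 6 settings plotted by gene.

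**Figure D3:**
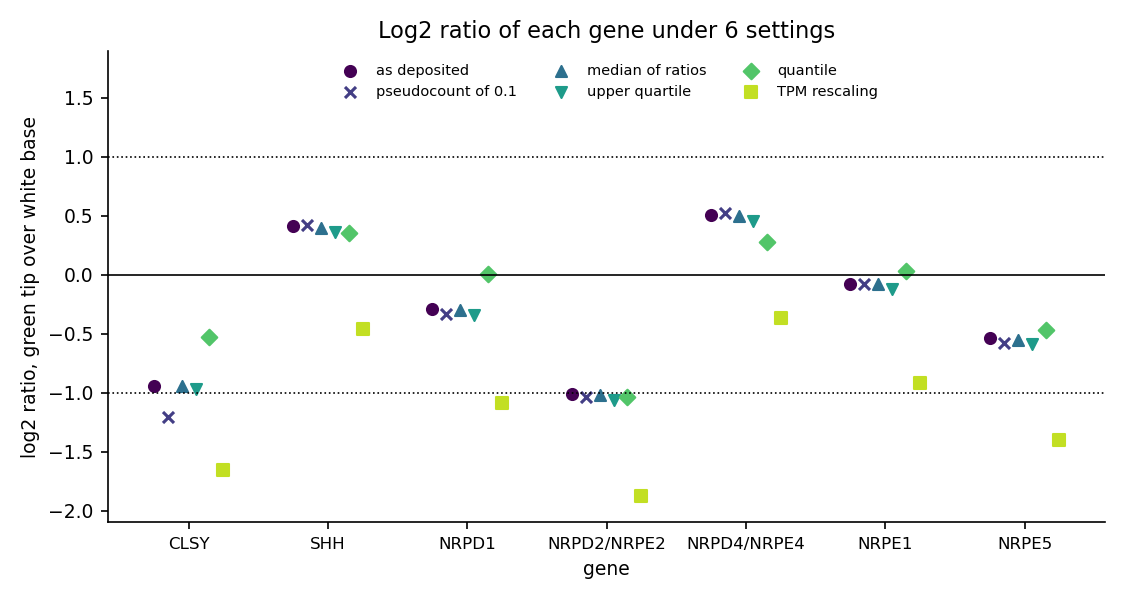
Log2 ratio of green tip over white base for the 7 compared genes (x axis) under 6 settings (symbols); dotted lines mark 2-fold and the solid line no difference. TPM rescaling (squares) lies lowest for every gene and takes SHH and NRPD4/NRPE4 below 0, while NRPD2/NRPE2 is at or below -1.01 throughout.

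Ratios between subunits within a tissue are free of any scaling factor put on a whole tissue. NRPE1 had 2.19 times the FPKM of NRPD1 in the green tip, against 1.84 times in the white base, so the largest subunit of Pol V was above that of Pol IV in both. Relative to the shared NRPD2/NRPE2, NRPD1 was at 0.292 in the green tip, against 0.179 in the white base, and NRPE1 was at 0.638 in the green tip, against 0.328 in the white base. Both ratios were higher in the green tip, by 1.63 and 1.95 times. Their denominator NRPD2/NRPE2 had itself 2.06 times as much FPKM in the white base, so neither ratio is separate from that difference.

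Further ratios were chosen after the values had been seen. The FPKM of NRPD1 and NRPE1 together was 0.930 of that of NRPD2/NRPE2 in the green tip, against 0.506 in the white base. In the same terms NRPD4/NRPE4 was at 5.45 in the green tip, against 1.85 in the white base. This ratio of the shared subunits was thus 2.95 times as high in the green tip. In both of these ratios NRPD2/NRPE2 was again the denominator, so its own difference between the tissues enters each. NRPE5 was at 0.980 of NRPE1 in the green tip, against 1.38 in the white base. For the recruiters, CLSY was at 0.318 of NRPD1 in the green tip, against 0.601 in the white base, whereas SHH was at 6.75 times NRPD1 in the green tip, against 4.0 times in the white base. These are ratios of transcript levels in whole tissue, without error.

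**Figure D4:**
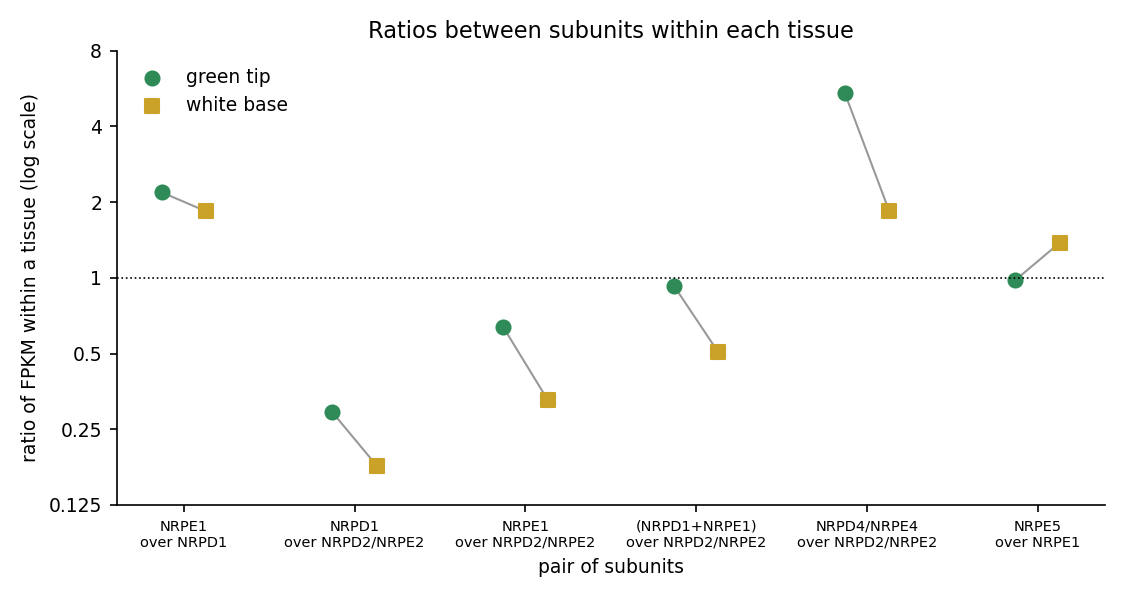
Ratio of FPKM between subunits within a tissue (y axis, log scale) for 6 pairs of subunits (x axis), with the green tip as circles and the white base as squares; the dotted line marks equal FPKM. The pair NRPD4/NRPE4 over NRPD2/NRPE2 is the widest apart, at 5.45 in the green tip, against 1.85 in the white base.

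The rest of the RdDM pathway, as the study lists it, was read on the same scale. Of 20 other genes, all with a mean over 0.5 FPKM, 1 was higher in the green tip by 2-fold or more, 1 in the white base and 18 were within 2-fold, beside 17.2% of all compared genes in the green tip direction and 20.7% in the white base direction. The median log2 ratio of the 20 genes was -0.25, beside -0.0095 for all compared genes. In the group that recruits Pol V, the median of 4 genes was -0.05. RDM1 (Aco004257), which in *Arabidopsis* links the components of DDR, the complex that helps Pol V onto chromatin, was the gene higher in the green tip, with 7.21 FPKM in the green tip, against 2.90 FPKM in the white base. It had a log2 ratio of 1.07 as deposited and 0.36 after TPM rescaling. DRD1 (Aco017413), the SNF2-type remodeler of that complex, had the lowest log2 ratio of the group, -0.73.

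The 7 genes of small RNA production and loading had a median of -0.72. DCL2 (Aco016157), a Dicer-like enzyme, was the gene higher in the white base, with 7.79 FPKM in the green tip, against 32.9 FPKM in the white base, giving a log2 ratio of -1.95. DCL4 (Aco008189), another Dicer-like enzyme, was the highest of this group at 0.14. The 9 effectors and modifiers had a median of -0.14 and ran from -0.97 for SUVR2 (Aco006945) to 0.51 for UBP26 (Aco013188), a ubiquitin protease. After TPM rescaling RDM1 was the 1 gene of the 20 with a log2 ratio above 0, so DCL4 at -0.68 and UBP26 at -0.32 were on the white base side too, and 11 of the 20 were higher in the white base by 2-fold or more, beside 42.0% of all compared genes.

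Among these 20 genes, the 3 nearest to NRPD2/NRPE2 in log2 ratio were SUVR2 at -0.97, AGO4 (Aco017860) at -0.90 and RDR2 (Aco015280) at -0.79. They differed from it by 0.04, 0.11 and 0.22 on the log2 scale. AGO4 had 42.7 FPKM in the green tip, against 80.3 FPKM in the white base, and RDR2, which works with Pol IV, had 2.83 FPKM in the green tip, against 5.63 FPKM in the white base. After quantile normalization or TPM rescaling RDR2 was no longer among the 3 nearest. It was at -0.40 and -1.55, beside -1.04 and -1.88 for NRPD2/NRPE2. The likeness of the 3 genes to NRPD2/NRPE2 rests on 2 tissues alone.

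**Figure D5:**
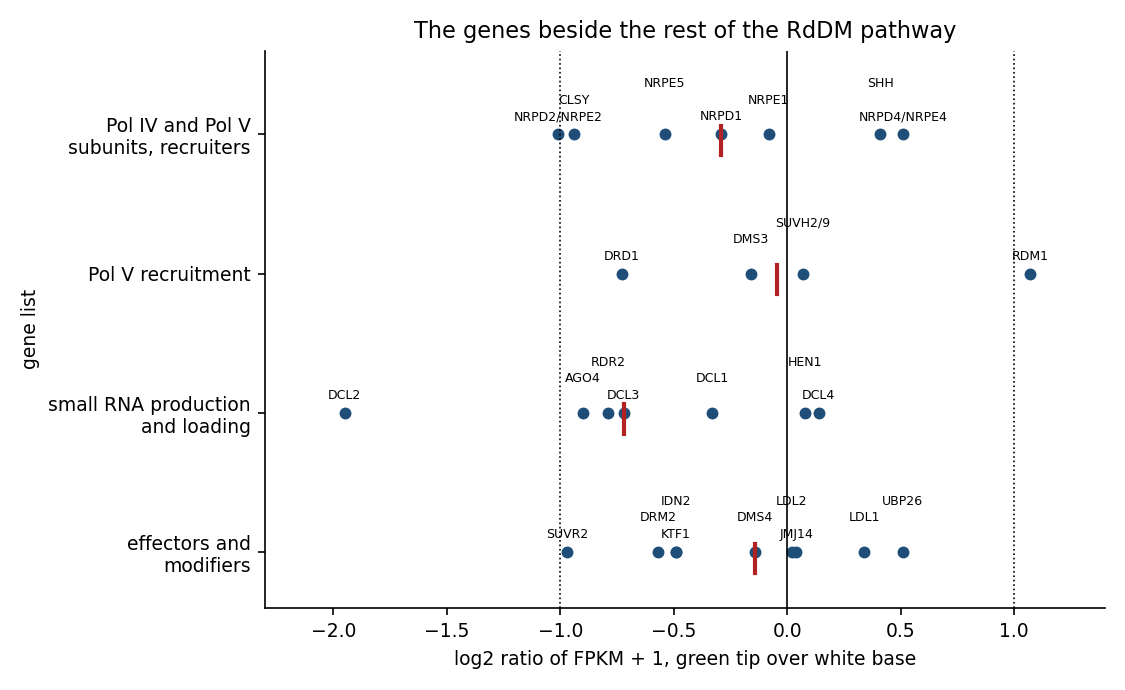
Log2 ratio of FPKM + 1, green tip over white base, of the 7 compared Pol IV and Pol V genes (top row) and of the 20 other RdDM genes in 3 lists; red bars mark the median of each row and dotted lines 2-fold. The medians are -0.29, -0.05, -0.72 and -0.14 from top to bottom, and DCL2 at -1.95, NRPD2/NRPE2 at -1.01 and RDM1 at 1.07 lie past 2-fold.

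The tissue labels were set beside 5 genes of enzymes of crassulacean acid metabolism (CAM), the photosynthesis of pineapple. The 5 genes were chosen with earlier results of these data known, so they are no independent check of the labels. All 5, 3 beta-CA genes, a PEPC gene and a PPDK gene, were higher in the green tip by 2-fold or more, with log2 ratios of 1.29 to 6.52, and all 5 stayed above 0 after TPM rescaling, when 3 were at least 2-fold higher. The medians of the genes over 0.5 FPKM were 12.8 FPKM in the green tip (17110 genes) and 12.9 FPKM in the white base (18096 genes).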

How the data were processed

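The deposited matrix holds FPKM values in 3 columns (green tip, white base and the mean of these), made by the authors from 4 RNA-seq libraries, 2 per tissue. The sources differ on how: the paper's methods name Trimmomatic, HISAT2, uniquely mapped reads and StringTie, whereas the submitters' processing notes name TopHat2 2.1.0, Cufflinks and Cuffdiff 2.2.1. Which of them made the matrix, and how each pair of libraries became a single column, is not given in the sources used here. The methods describe 2 RNA-seq libraries per tissue for the late-morning sample alone, but no label ties the matrix to that time. The build and annotation version are likewise not given, and strand and shared reads between gene copies could not be checked.

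The planned limma fit needs a column per library and was not run. Log2 ratios were taken on FPKM + 1 where the mean of the tissues exceeded 0.5 FPKM, and a 2-fold criterion took the place of a test. FPKM values carry no depth, so no interval or detection limit is given. Among 226 genes listed above 0 in each tissue with a mean below 0.1 FPKM, no more than 11 shared a bin of 0.01 in log2 ratio and the next fullest bin held 6, which did not give the depth.

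Named genes are the 8 genes, the other RdDM genes past 2-fold, the highest and lowest of each list, and the 3 of the other RdDM genes nearest to NRPD2/NRPE2. The genes and lists were chosen with earlier results of these data known. Gene names are the study's: 0 of the 8 identifiers matched the RefSeq table, so no coordinates or sequences are shown. The settings varied were the pseudocount (0.1), the filter (none, or a mean over 1 FPKM), the scaling by TPM, median of ratios, quantiles or upper quartile, and the criterion (1.5-fold). Calculations used Python 3.11.15, numpy 2.4.6, pandas 2.3.3 and scipy 1.17.1, figures matplotlib 3.10.9, and the code was tested on simulated data.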

Additional observations from a re-analysis of the deposited data

How the results depend on the processing

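No paired analysis was possible because each tissue has a single FPKM column. For the same reason no library could be left out, and the precision of every value is unknown. TPM rescaling moved the most values. It took the log2 ratios of CLSY to -1.66, NRPD1 to -1.09, NRPE5 to -1.40 and the median of the 7 genes to -1.09, all past 2-fold, and it reversed SHH to -0.46 and NRPD4/NRPE4 to -0.37. The Pol IV and Pol V genes past 2-fold on the white base side were then 4, against 1 as deposited, and the other RdDM genes 0 in the green tip direction and 11 in the white base direction, against 1 and 1. Of all compared genes, 8.97% then passed in the green tip direction and 42.0% in the white base direction, against 17.2% and 20.7% as deposited. Quantile normalization reversed NRPD1 to 0.01, NRPE1 to 0.03 and the median to 0.01, all within 2-fold. It gave 2 of the 20 other RdDM genes higher in the white base by 2-fold or more, beside 18.0% of all compared genes. Upper-quartile scaling also gave 2, beside 3950 of the 18372 genes compared. A pseudocount of 0.1 took CLSY to -1.21. On the white base side 2 of the 7 genes and 2 of the 20 other RdDM genes then passed 2-fold, beside 23.9% of all compared genes. At 1.5-fold these counts were 2 and 6, beside 29.9% of all compared genes. The filter leaves each gene's own ratio as it is, and scaling by the median of ratios moved the median of all genes by only -0.01. Among all compared genes, 6628 (mean over 1 FPKM) to 10334 (1.5-fold) passed the criterion, against 6981. Adding 1 to each FPKM moved none of the ratios between subunits by more than 1.5 times.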
